A study of Drosophila melanogaster with 9 samples.

Results

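The centromere ends of the Drosophila melanogaster chromosome arms were described as listed Hi-C contacts: pairs of 10 kb bins with at least 1 bin in the 1 Mb of mapped sequence next to the centromere on 2L, 2R, 3L, 3R or X. The windows were 2L 21990001-22990000, 2R 10001-1010000, 3L 23540001-24540000, 3R 1-1000000 and X 21430001-22430000, set by the first or last bin listed on each arm and not by any score. They held 9393 different pairs out of 82344 in the 2 deposited lists combined, 6481 of 59303 in one list and 5264 of 33978 in the other. Hi-C joins and sequences DNA ends that lay close together in fixed nuclei. The first list covers both heat-shock Hi-C libraries of Kc167, an established line of female embryonic cells, grown in serum-free medium at 25 °C, brought to 37 °C for 20 min by mixing with warm medium, fixed in 1% formaldehyde for 10 min and cut with HindIII. It is called the heat-shock list. No label used here ties the second list, called the companion list, to a sample, a temperature or a number of libraries, so the differences below are between lists and not between known treatments. The series has 9 samples in all; the ChIP and input ones are not used here.

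As background, the DNA next to a fly centromere is packed as heterochromatin, rich in repeats and transposon remnants, marked by methylated histone H3 and bound by HP1 proteins. In interphase nuclei the heterochromatin around the centromeres gathers in a common compartment, the chromocenter, apart from the gene-rich remainder of the arms. The arms 2L and 2R flank one centromere, 3L and 3R another, and the long arm of the X ends at its own. Neither list holds pairs between arms, so contacts across a centromere were not measured here.

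Each line of a list gives 2 bins and the authors' score, a negative number of unknown scale that was never above -2 in either list. No read counts accompany the lists, so depth is unknown, and absence of a pair means no more than that it did not pass the authors' limit. There is 1 list of each kind and hence no replicate spread and no test between conditions. The intervals given are exact 95% intervals that cover counting error only and treat neighbouring pairs as independent, which makes them too narrow. Of the 100 bins in each window, 100 took part in a pair on 2R, 97 on 3R, 95 on 2L, 92 on 3L and 72 on X. On X only 1 bin was used in each of the steps 0.7 to 0.8 and 0.8 to 0.9 Mb from the end.

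The ends of 2L, 2R, 3L and X were the most densely paired stretches of their arms, and the end of 3R was not. In the companion list the 2R window held 826 pairs with both bins inside, against a median of 53 and a maximum of 122 in the other 1 Mb windows of the arm. In the heat-shock list it held 740, against a median of 57.5 and a maximum of 165. The 3L window held 639 companion and 386 heat-shock pairs, against maxima of 139 and 332 in the other windows of the arm. The 2L window held 357 and 311, against maxima of 195 and 183. The X window held 203 and 211, against maxima of 119 and 190. In the heat-shock list the leads of 3L and X were thus much narrower than that of 2R. Each of these 4 windows ranked first on its arm in both lists, a ranking added after the values were seen. The 3R window, with 50 companion and 107 heat-shock pairs, ranked 15th and 9th of 27. By comparison, the 1 Mb windows at the telomere ends together held 331 companion and 861 heat-shock pairs with both bins inside, against 2075 and 1755 at the centromere ends.

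The arms also differed in how much of their contact list the end supplied. Pairs touching the window made up 27.7% (26.6 to 28.8%) of the companion pairs of 2R and 24.2% (23.2 to 25.2%) of those of 3L. They made up 12.1% (11.3 to 12.9%) on 2L, 7.43% (6.71 to 8.20%) on X and 4.38% (3.94 to 4.86%) on 3R. In the heat-shock list 2R had 21.0% (20.2 to 21.8%), 3L 13.9% (13.3 to 14.5%), 2L 10.5% (9.94 to 11.1%) and X 4.54% (4.11 to 5.01%). All 4 were below the companion share with intervals that do not overlap. On 3R the share was 5.28% (4.94 to 5.63%), above the companion share.

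**Figure D1:**
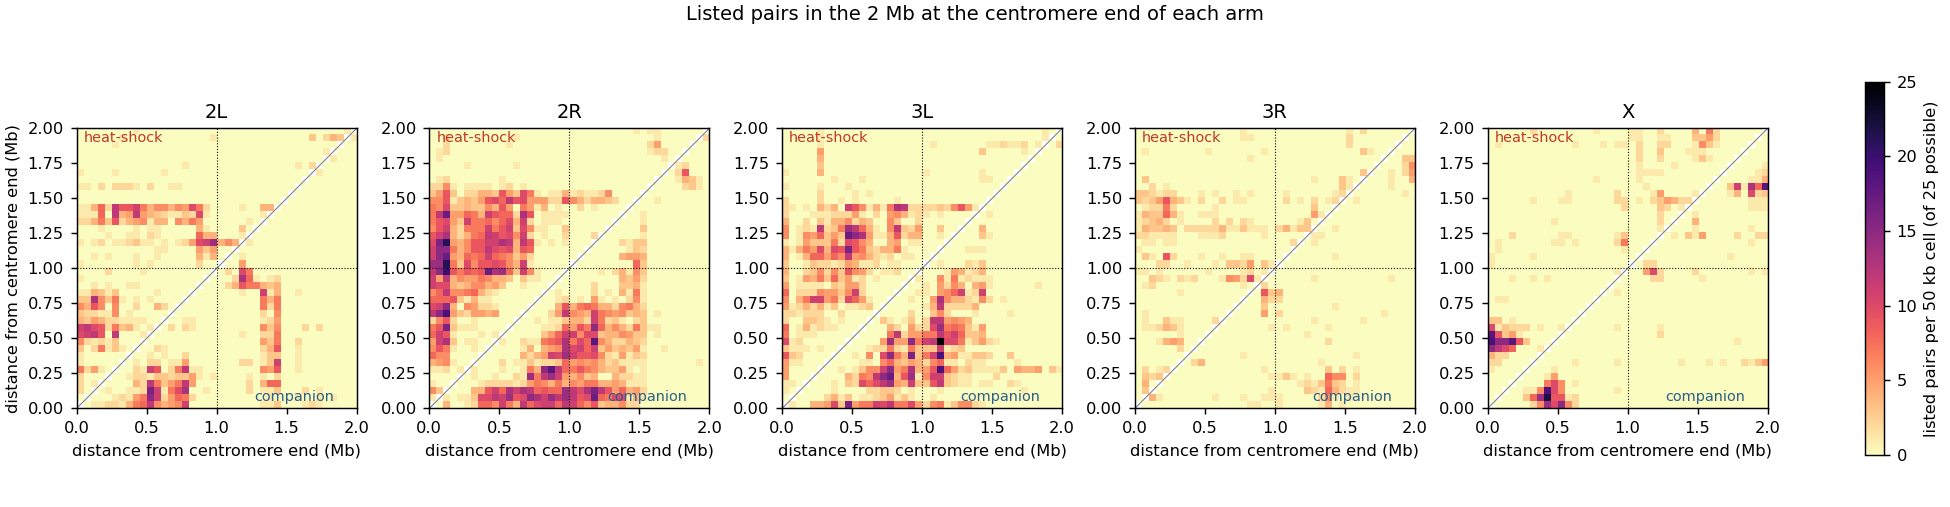
Listed pairs in the last 2 Mb before the centromere, as numbers of pairs per 50 kb cell, with the distance of each bin from the centromere end in Mb on both axes. Cells above the diagonal are of the heat-shock list and those below of the companion list; dotted lines mark the 1 Mb edge of the window. The dense blocks lie away from the diagonal on 2L, 2R, 3L and X, while 3R has no block of that density.

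Inside the windows the contacts were not those of near neighbours. The share of possible bin pairs that was listed, counted among bins used in either list, was low at short distance and rose from 0.2 Mb on. For bins 0.02 to 0.1 Mb apart the heat-shock share was 2.10% (2.01 to 2.21%) outside the windows, while inside them 42 of 3239 possible pairs were listed (interval 0.936 to 1.75%). For bins 0.3 to 1 Mb apart it was 13.7% (13.0 to 14.4%) inside and 1.73% (1.70 to 1.76%) outside. In the companion list the values at 0.3 to 1 Mb were 17.1% (16.4 to 17.9%) inside and 1.14% (1.11 to 1.16%) outside. Pooled over the arms, the windows thus had fewer of the shortest pairs and many times more of the longer ones than the rest of the arms; 3R had neither, with 2.54% (1.51 to 3.99%) inside and 2.05% (1.86 to 2.26%) outside at 0.02 to 0.1 Mb in the heat-shock list. Because the score's background model is unknown, the listed share describes which pairs passed the authors' limit and not the frequency of contact.

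Each arm had its own distance profile. On 2R the companion share rose to 41.1% (36.0 to 46.4%) at 0.6 to 0.7 Mb, was 31.8% (26.1 to 37.9%) at the next step and reached 50.9% (37.1 to 64.6%) at 0.9 to 1 Mb. The heat-shock share at that last step was 56.4% (42.3 to 69.7%), the highest of any end. On 3L the companion share stayed between 31.5% and 32.9% from 0.4 to 0.7 Mb, while the heat-shock share there lay between 15.1% and 19.1%. On X both lists peaked at 0.3 to 0.4 Mb, with 26.4% (21.8 to 31.3%) among companion pairs and 21.8% (17.6 to 26.5%) of possible pairs in the other. No X pair was listed beyond 0.8 Mb inside the window, where 90 pairs were possible at 0.8 to 0.9 Mb and 44 at 0.9 to 1 Mb. On 3R the shares at 0.3 to 1 Mb were 1.54% (1.08 to 2.13%) for heat-shock and 0.471% (0.235 to 0.841%) for companion pairs, below the 2.15% (2.08 to 2.22%) and 1.46% of the remainder of that arm.

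The maps resolved these profiles into blocks, whose limits were drawn after the maps were seen. On X, bins within 0.25 Mb of the end paired with bins 0.35 to 0.65 Mb from it. This single block held 90.0% of the heat-shock and 89.2% of the companion pairs with both bins inside. On 2L, bins within 0.3 Mb of the end paired with bins 0.5 to 0.8 Mb from it, which accounted for 66.2% and 70.6% of the pairs inside. On 2R, the bins within 0.15 Mb of the end paired along the whole stretch from 0.3 to 1.6 Mb, with 40.6% (38.4 to 42.8%) of 1905 possible pairs listed for heat shock and 34.0% (31.9 to 36.2%) among companion pairs. On 3L, bins 0.15 to 0.65 Mb from the end paired with bins 0.7 to 1.4 Mb from it, with 641 heat-shock and 824 companion pairs of 3264 possible. On 2L a narrow outside stretch 1.3 to 1.5 Mb from the end paired with bins 0.1 to 0.9 Mb from it, with 254 heat-shock and 203 companion pairs of 1050 possible. Each of these blocks thus held pairs of both lists, and those that crossed the window edge on 2R and 2L were fuller in the heat-shock list while the one on 3L was fuller in the companion list.

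**Figure D2:**
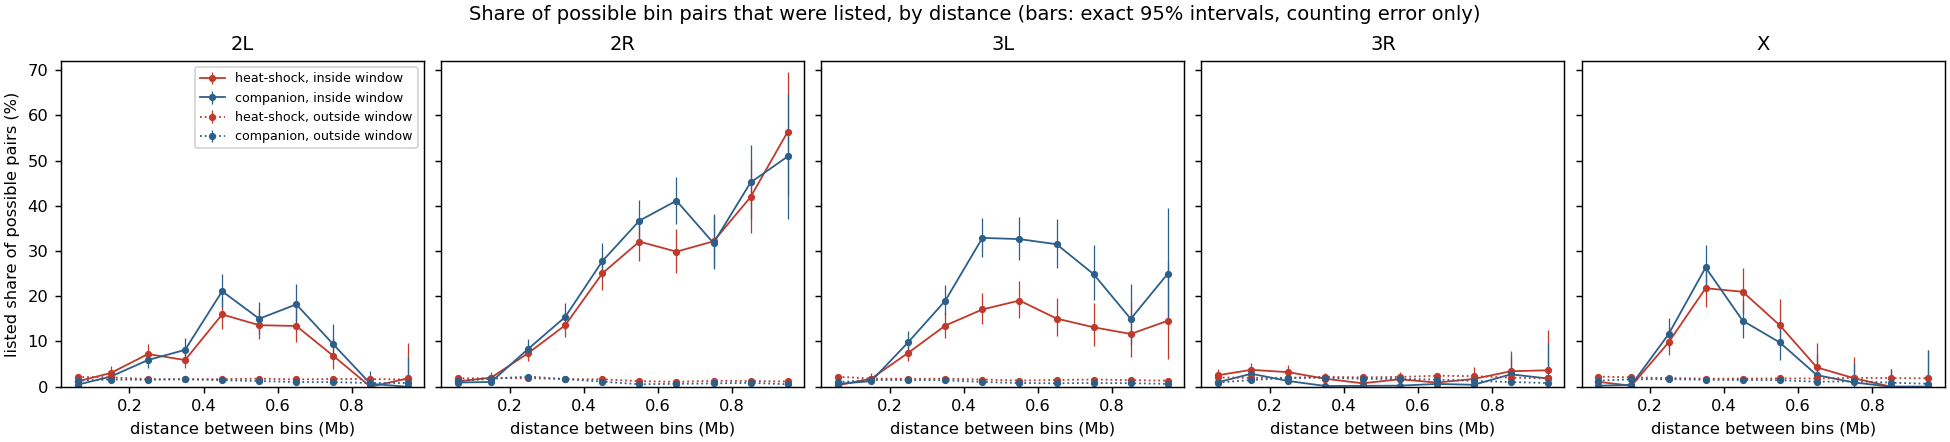
Share of possible bin pairs that were listed (%), against the distance between the bins (Mb, steps of 0.1 Mb), for pairs inside the window (solid lines) and outside it (dotted lines) on each arm; bars are exact 95% intervals. Inside lines lie far above the outside lines from 0.2 Mb on for 2R and 3L, between 0.2 and 0.8 Mb for 2L and between 0.2 and 0.6 Mb for X, falling to or below them at the longest distances on 2L and X; for 3R they stay near them.

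Between the lists, pairs inside the windows did not share the excess of heat-shock pairs seen in the pooled outside pairs. The heat-shock list, which is the longer, had 1.84 (1.81 to 1.87) times as many pairs as the companion list outside the windows, and 1.44 (1.41 to 1.47) times as many among outside pairs up to 1 Mb apart. With both bins inside, 1755 heat-shock pairs stood against 2075 companion pairs. The ratio inside was 0.588 (0.549 to 0.629) times that of outside pairs up to 1 Mb apart, a comparison that holds the distance range alike. It was below 1 on 3L at 0.383 (0.333 to 0.440), on 2L at 0.623 (0.528 to 0.734), on 2R at 0.686 (0.610 to 0.771) and on X at 0.707 (0.576 to 0.868). On 3R it was above 1 at 1.49 (1.05 to 2.14). Low ratios were not particular to the ends. Among the 1 Mb windows of its arm, the end of 3L had only the 5th lowest plain ratio of 24. The ends of 2L and X were 6th lowest of 22, that of 2R 6th of 21 and that of 3R 22nd of 27. On 3L the lowest other window had a plain ratio of 0.237, against 0.604 at the end. With arm 3L left out, an alternative chosen after its values were seen, the plain ratio inside was 0.953 (0.885 to 1.03), so that the interval then included 1. The plain ratio was also 1.02 in windows of 0.5 Mb and 1.07 in windows of 2 Mb. Set against outside pairs up to 1 Mb apart it was 0.721 and 0.743. With these window sizes the distance range is not alike, since inside pairs span less than 0.5 Mb or up to 2 Mb.

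Pairs with 1 bin inside and 1 outside were more numerous in the heat-shock list on 4 of 5 arms. There were 4726 of them against 3189 in the companion list, which gives 1.48 (1.42 to 1.55). The end of 3R had the highest ratio, 2.59 (2.25 to 2.97), followed by 2L with 1.77 (1.59 to 1.99), 2R with 1.54 (1.42 to 1.66) and 3L with 1.11 (lower bound 1.02). That of X, 1.06 (0.852 to 1.32), was within the counting error of 1. These ratios depend on list length: with both lists at equal length the ratio over all arms was 0.931, below 1. Relative to outside pairs at all distances, the ratio of these spanning pairs was smaller on 2R (0.849, 0.779 to 0.925), 3L (0.601, 0.552 to 0.654) and X (0.600, 0.480 to 0.751). It was larger on 3R (1.25, 1.08 to 1.44) and not distinguishable on 2L (1.09, 0.970 to 1.23). Distance was not held alike here. Companion median distances were 0.99 Mb for spanning and 1.42 Mb for outside pairs, and 0.85 and 1.52 Mb on 2R. On 3R (2.69 and 1.17 Mb) and X (5.42 and 1.11 Mb) spanning pairs were the longer. Split by reach, the ratio on 2R did not come out smaller. Below 1 Mb its interval was 1.29 to 1.52, against 1.23 to 1.39 for outside pairs up to 1 Mb apart. At 1 Mb or more the factor was 1.32 (1.04 to 1.68). Distance was still not held alike, since reach is counted from the window edge. Companion median distances of these classes were 0.80 and 0.32 Mb, and 4.45 and 2.99 Mb for the longer ones. Outside pairs of 2R numbered 923 (heat-shock) and 877 (companion) at 0.02 to 0.3 Mb, and 1605 and 1059 at 0.3 to 1 Mb. Whether the ratio on 2R was smaller at like distance was not tested.

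The make-up of the ends differed between the lists. Pairs with both bins inside were 39.4% (38.1 to 40.8%) of companion window pairs and 27.1% (26.0 to 28.2%) of heat-shock window pairs. A shift in the same direction was present outside the windows. Pairs up to 1 Mb apart were 11967 of 28714 companion and 17216 of 52822 heat-shock outside pairs. The lower share inside is thus not read as particular to the ends. The share was lower in the heat-shock list on 2L, going from 42.5% (39.1 to 45.9%) to 26.6% (24.1 to 29.3%), on 2R, from 43.9% (41.7 to 46.2%) to 31.3% (29.5 to 33.3%), and on 3L, from 34.7% (32.6 to 37.0%) to 22.5% (20.5 to 24.5%). On X, where most pairs were internal, the share was 55.6% (50.4 to 60.8%) in the companion list and 55.1%, 211 of 383 pairs, in the other. On 3R, where few were, they were 14.8% (11.2 to 19.0%) and 12.6% (10.4 to 15.0%).

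**Figure D3:**
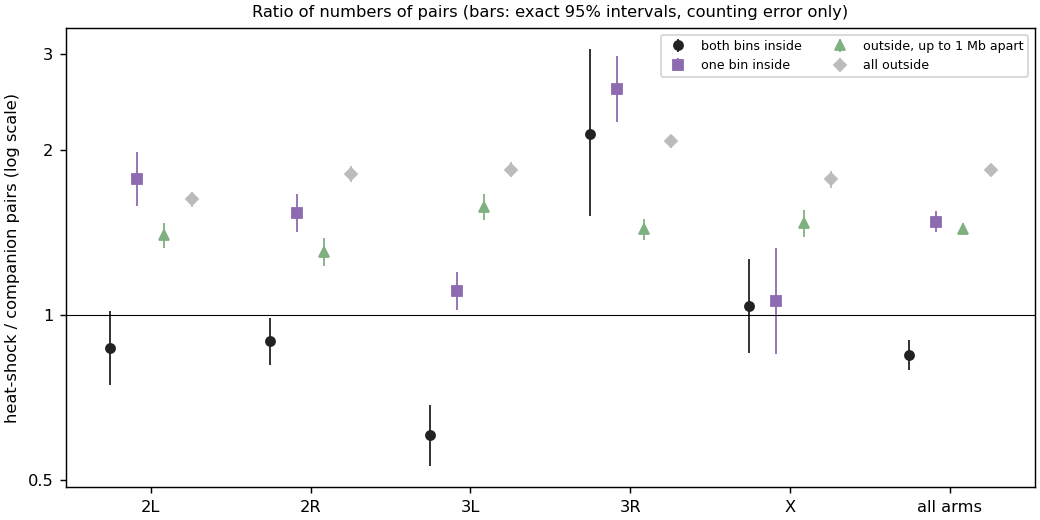
Ratio of the number of heat-shock pairs to the number of companion pairs (log scale) on each arm and over all arms, for pairs with both bins inside the window, with one bin inside, outside and up to 1 Mb apart, and all outside; bars are exact 95% intervals. The ratio inside the window lies below that of outside pairs up to 1 Mb apart on 2L, 2R, 3L and X and above it on 3R.

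The reach of the spanning pairs was taken from the inner edge of the window to the outside bin. On 2L, 2R and 3L the pairs were dense below 0.6 Mb, with others at longer reach along the whole arm, mostly thin per step. In sum these others were many. On 2L 448 of 857 heat-shock spanning pairs reached 1 Mb or more (52.3%), on 3L 640 of 1331 (48.1%) and on 2R 285 of 1621 (17.6%). They were not all scattered: most of those of 3L came from a single window bin. Part of those of 2L met at adjacent outside bins, as described below. Of 4726 heat-shock pairs, 2648 reached less than 0.6 Mb, 65 reached 0.6 to 1 Mb and 2013 reached 1 Mb or more. Of 3189 companion pairs the numbers were 2107, 68 and 1014. Pairs of longer reach began at once beyond the near range: 26 heat-shock pairs of 2R reached 1 to 2 Mb and 16 reached 0.6 to 1 Mb. The near range ended sharply. On 2R the heat-shock pairs per 0.1 Mb step fell from 204 at 0.4 to 0.5 Mb to 95 at 0.5 to 0.6 Mb and 4 at 0.6 to 0.7 Mb. On 3L the fall came one step earlier, from 89 at 0.4 to 0.5 Mb to 7 at 0.5 to 0.6 Mb, and on 2L from 114 to 15 over the same steps. The companion list fell at the same places, from 120 to 35 and then 4 on 2R, from 58 to 8 on 3L and from 103 to 8 on 2L.

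**Figure D4:**
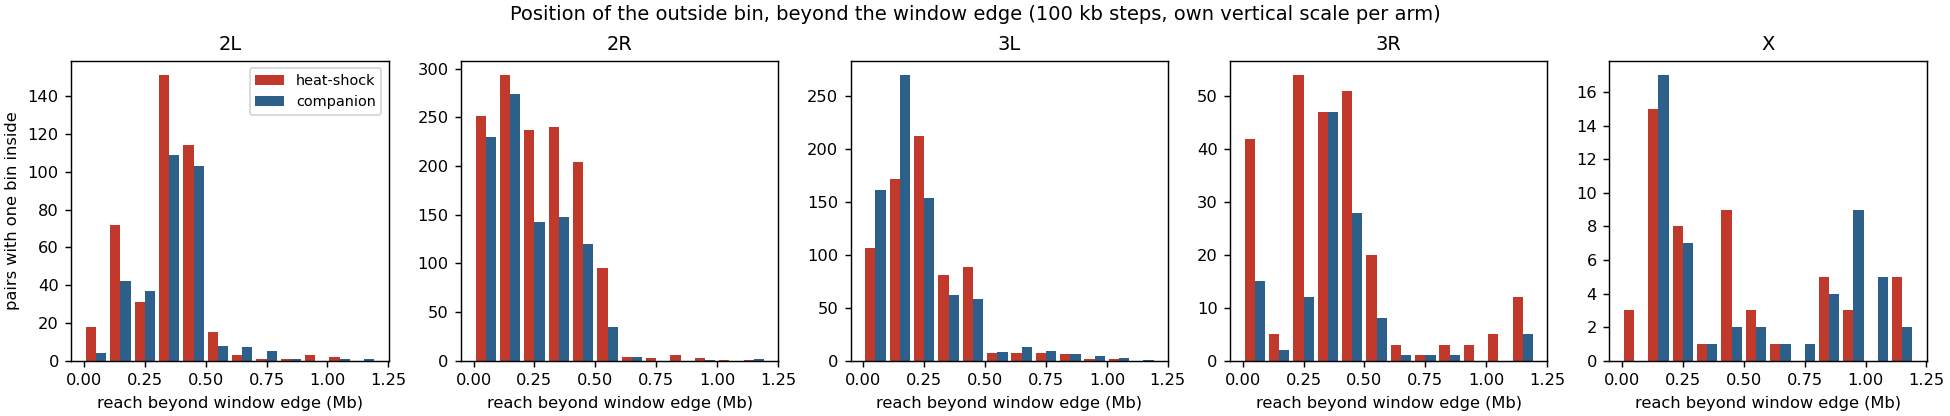
Number of pairs with one bin inside the window, by reach of the outside bin beyond the window edge (Mb, steps of 0.1 Mb), for the heat-shock and companion lists; each arm has its own vertical scale starting at 0. On 2L, 2R and 3L the counts drop steeply by 0.6 Mb and stay low to the end of the plot, on 3R they are low from 0.6 to 1 Mb, and on X they are few at every step.

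The outermost outside bin under 1 Mb with at least 10 window partners shows the same edge. On 2R it was 2R 1550001-1560000 (heat-shock) and 2R 1520001-1530000 (companion), 0.54 and 0.51 Mb beyond the window. On 3L it was 3L 23090001-23100000 and 3L 23130001-23140000, at 0.44 and 0.40 Mb. On 2L it was 2L 21410001-21420000 and 2L 21540001-21550000, at 0.57 and 0.44 Mb. On 3R it was 3R 1540001-1550000 and 3R 1390001-1400000, at 0.54 and 0.39 Mb. On every arm with such a bin the heat-shock one lay farther out, and X had none in either list. The limit of 10 partners is easier to pass in the longer heat-shock list. Under 1 Mb, 15 heat-shock against 12 companion bins passed it on 2L, 44 against 37 on 2R, 32 against 25 on 3L and 8 against 2 on 3R. Equal list length was not tried for this edge, so no difference in reach is read from the order.

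The excess of heat-shock pairs was larger among pairs reaching 1 Mb or more than among nearer ones. Pairs reaching 1 Mb or more made up 42.6% (41.2 to 44.0%) of heat-shock and 31.8% (30.2 to 33.4%) of companion spanning pairs. Their ratio between the lists was 1.99 (1.84 to 2.14), against 1.25 (1.18 to 1.32) for pairs reaching less than 1 Mb. Compared with outside pairs of 1 Mb or more, whose ratio was 2.13 (2.09 to 2.17), the far pairs of the ends differed by a factor of 0.934 (0.863 to 1.01), which is within counting error, and by 1.07 (0.981 to 1.17) without the richest bin of 3L described below. Distance was not held alike here, since far is counted from the window edge. Median distances between bins were 6.54 Mb (heat-shock) and 7.84 Mb (companion) for far pairs, against 2.82 and 3.09 Mb for these outside pairs. Over all arms, far pairs of the ends could not be told from outside pairs of 1 Mb or more by this ratio, but the arms were not alike. For 2L the factor was 1.52 (1.26 to 1.83), for 2R 1.32 (1.04 to 1.68) and for 3R 1.13 (0.947 to 1.36). For 3L it was 0.704 (0.619 to 0.801), or 0.842 (0.688 to 1.03) without its richest bin, and for X 0.516 (0.396 to 0.673).

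Median reach over all arms was 0.45 Mb (0.44 to 0.48 Mb) for heat-shock pairs and 0.36 Mb (0.35 to 0.38 Mb) for companion pairs. On 2L it was 1.67 Mb (0.57 to 2.17 Mb) against 0.43 Mb (0.41 to 0.43 Mb), and the share beyond 1 Mb went from 34.6% to 52.3%. On 2R it was 0.30 Mb (0.29 to 0.32 Mb) against 0.21 Mb (0.19 to 0.23 Mb) and on 3L 0.54 Mb (0.44 to 1.29 Mb) against 0.32 Mb (0.27 to 0.36 Mb). On 3R the heat-shock median was 2.83 Mb (2.44 to 3.09 Mb), and the companion median of 2.04 Mb had an interval that spanned it. X was ordered the other way, with 3.03 Mb (1.84 to 4.44 Mb) for heat-shock and 4.97 Mb (3.23 to 5.74 Mb) for companion pairs, also overlapping. On X, 62 of 172 heat-shock spanning pairs reached 5 Mb or more (36.0%, 28.9 to 43.7%), against 81 of 162 companion pairs (interval 42.1 to 57.9%). The longest reach was 24.0 Mb (heat-shock) and 25.6 Mb (companion), both on 3R. In windows of 2 Mb the order over all arms was the other way, 2.59 Mb for heat-shock and 3.00 Mb for companion pairs.

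On 3L a single bin carried most of the far reach. The bin 3L 24160001-24170000, 0.37 Mb from the centromere end, had 366 of the 640 heat-shock far pairs of this end (57.2%, 53.3 to 61.1%) and 292 of the 455 companion far pairs (64.2%, 59.6 to 68.6%). It had no partner inside the window in either list. Its nearest partner lay 1.26 Mb (heat-shock) and 0.74 Mb (companion) away, and its farthest 23.1 and 23.2 Mb away. The interquartile range of its distances was 10.2 to 20.0 Mb for heat-shock and 9.75 to 17.4 Mb for companion pairs. Its partners were thus spread along the arm, with none in its near surroundings. Without it, the 3L median reach was 0.29 Mb (0.27 to 0.32 Mb) and 0.22 Mb (0.19 to 0.23 Mb), and far pairs were 274 of 964 heat-shock and 163 of 906 companion spanning pairs.

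On 2L the far pairs met at adjacent outside bins, a feature singled out after the values were seen. The bin 2L 17980001-17990000, 4.00 Mb beyond the window, paired with 56 window bins (heat-shock) and 48 (companion). Its neighbour 2L 17990001-18000000 paired with 37 and 21. Together they took 93 of 448 heat-shock far pairs (20.8%, 17.1 to 24.8%) and 69 of 167 companion far pairs (41.3%, 33.8 to 49.2%). The remainder of the far heat-shock pairs of 2L was scattered: the end reached 277 different outside bins beyond 1 Mb, against 80 in the companion list.

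Some far partners were present in 1 list only. On 3L the bin 3L 19850001-19860000, 3.68 Mb beyond the window, paired with 22 window bins in the companion list and with none in the heat-shock list, where it still had 24 partners elsewhere. The bin 3L 16510001-16520000 went from 9 window partners to 0. In the other direction, 3R 4610001-4620000 had 13 heat-shock and 0 companion window partners. On 3R the nearer bins 3R 1290001-1300000 and 3R 1450001-1460000 had 36 and 26 heat-shock window partners against 3 and 2. Both belong to bins whose partners rose along the arm as a whole, from 10 to 128 and from 8 to 148. These bins were the first or second on their arm by window partners in the list named.

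Pairs of the ends recurred between the lists more often than other pairs taken at all distances. Over all arms the heat-shock list also held 32.2% of companion pairs, which were 18.4% of its own. Of companion pairs touching a window 44.7% (43.3 to 46.0%) were shared, against 29.9% (29.4 to 30.4%) outside the windows. At like distance the difference was smaller: with both bins inside, 46.7% (44.6 to 48.9%) were shared, close to the 45.5% (44.6 to 46.4%) of outside pairs up to 1 Mb apart. Far pairs, reaching 1 Mb or more beyond the window, were not at like distance to outside pairs 1 Mb or more apart. The companion median distances between bins were 7.84 and 3.09 Mb. Far pairs were shared at 23.9% (21.3 to 26.6%), against 18.8% (18.2 to 19.4%) of those outside pairs, but this rested on the richest bin of 3L. Without it, a comparison added after the values were seen, 104 of 722 far pairs were shared (14.4%, 11.9 to 17.2%), below the outside share, and on 3L only 4 of 163. Set against outside pairs of the same arm, the odds that a far pair was shared were 1.84 (1.31 to 2.56) times as high on 2L, 0.515 (0.255 to 0.953) on 2R, 0.851 (0.501 to 1.38) on 3R and 0.151 (0.0479 to 0.366) on X.

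Sharing differed widely between arms. On X, 120 of 203 companion pairs inside the window were shared (59.1%, 52.0 to 65.9%) but only 19 of 162 spanning pairs (11.7%, 7.21 to 17.7%), and 5 of 118 far pairs. On 2R the shares were 54.7% (51.3 to 58.2%) inside and 55.7% (52.7 to 58.8%) for spanning pairs, and 12 of 101 far pairs recurred (11.9%, 6.29 to 19.8%). On 3L, the end with the largest loss, 34.1% (30.4 to 37.9%) were shared inside, below the 44.9% (42.7 to 47.0%) of outside pairs up to 1 Mb apart on that arm. Of the fewer heat-shock pairs inside the 3L window, 56.5% (51.4 to 61.5%) were also companion pairs. On 2L, 37.7% (30.4 to 45.5%) of far pairs were shared, the highest share among the ends.

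Counted by bin, the centromere ends had fewer heat-shock than companion partners more often than the arms at large. Such a difference is called a loss or a gain of the heat-shock list, with no order in time implied. Of the 456 window bins, 179 had fewer partners in the heat-shock list (39.3%, 34.7 to 43.9%), against 20.5% of all bins and 19.7% (18.9 to 20.4%) of bins outside the windows. More partners were found at 248 window bins (54.4%, 49.7 to 59.0%), against 70.8% of all bins. At equal list length the bins with fewer partners were 64.7% in the windows and 48.2% outside. The losing bins were 62 of 92 on 3L (67.4%, 56.8 to 76.8%), 43 of 100 on 2R, 30 of 72 on X (41.7%, 30.2 to 53.9%), 38 of 95 on 2L and 6 of 97 on 3R (6.19%, 2.30 to 13.0%). The median bin of 3L had 24 companion and 16 heat-shock partners, whereas that of 3R had 2 and 7. The medians of the other ends differed little, 11 and 13 on 2L, 23 in both on 2R, and 6 and 7 on X.

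Loss was of inside partners more than of outside ones. Fewer inside partners were found at 229 of the 456 bins and fewer outside partners at 105, while 299 had more outside partners. Distance is not held alike here, since inside partners lie less than 1 Mb away and outside ones anywhere along the arm. Among pairs outside the windows the heat-shock to companion ratio was 1.44 up to 1 Mb apart and 2.13 at 1 Mb or more. A like count for other windows was not made, so this order is not read as particular to the ends. On 3L, 69 of 92 bins had fewer inside partners and 42 had fewer outside partners. On 2R these numbers were 61 and 22 of 100, and on 2L 50 and 15 of 95. On 3R, 16 of 97 bins had fewer inside and 7 fewer outside partners.

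Loss was spread along the 3L window and patchy elsewhere. In 100 kb steps from the end, the summed inside partners of 3L bins were lower in the heat-shock list in all 10 steps, from 78 against 84 at 0.5 to 0.6 Mb to 32 against 93 at 0.6 to 0.7 Mb. On 2R the fall was deepest at 0.2 to 0.3 Mb, with 71 inside partners against 138, and the step nearer to the end, 0.1 to 0.2 Mb, had 228 against 182. On 2L outside partners rose from 46 to 172 at 0.4 to 0.5 Mb and from 45 to 126 at 0.3 to 0.4 Mb, while inside partners there moved from 47 to 41 and from 26 to 15. On X the step at 0.3 to 0.4 Mb fell from 62 to 28 partners in all, and 7 of its 9 bins lost.

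Among the 245 window bins with at least 10 companion partners, 96 kept at least 50% of them in the heat-shock list (39.2%, 33.0 to 45.6%), against 28.0% of all such bins and 26.4% (24.3 to 28.5%) of those outside the windows. Distance is not held alike in this comparison. Companion pairs touching a window had a median distance of 0.68 Mb, against 1.42 Mb outside. Pairs with both bins inside were shared at 46.7%, close to the 45.5% of outside pairs up to 1 Mb apart. At most 50% as many partners in the heat-shock list were found at 36 of the 245 (14.7%, 10.5 to 19.8%), against 8.73% of all such bins. This second excess rested mainly on 3L: the other ends together had 10 such bins of 169 (5.92%, 2.87 to 10.6%), with an interval that includes the background. X by itself had 18.2% (5.19 to 40.3%), a wide interval that includes it too. The bins compared were picked by their companion partners only, and picking by heat-shock partners was not tried. They were also not matched on that number. Over all used bins the median was 11 companion partners in the windows and 3 outside. The share keeping at least 50% was 19.6% at equal list length and 90.6% when a partner in the adjacent bin also counted as kept. By arm, partners were kept by 13 of 22 such bins on X, 41 of 87 on 2R, 23 of 51 on 2L, 3 of 9 on 3R and 16 of 76 on 3L. The drop to at most 50% was found at 26 of the 76 bins of 3L (34.2%, 23.7 to 46.0%), 5 of 87 on 2R, 4 of 22 on X, 1 of 51 on 2L and none of 9 on 3R. Across window bins the numbers of partners in the lists had a Spearman rho of 0.77, a description over bins that share libraries and neighbours.

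**Figure D5:**
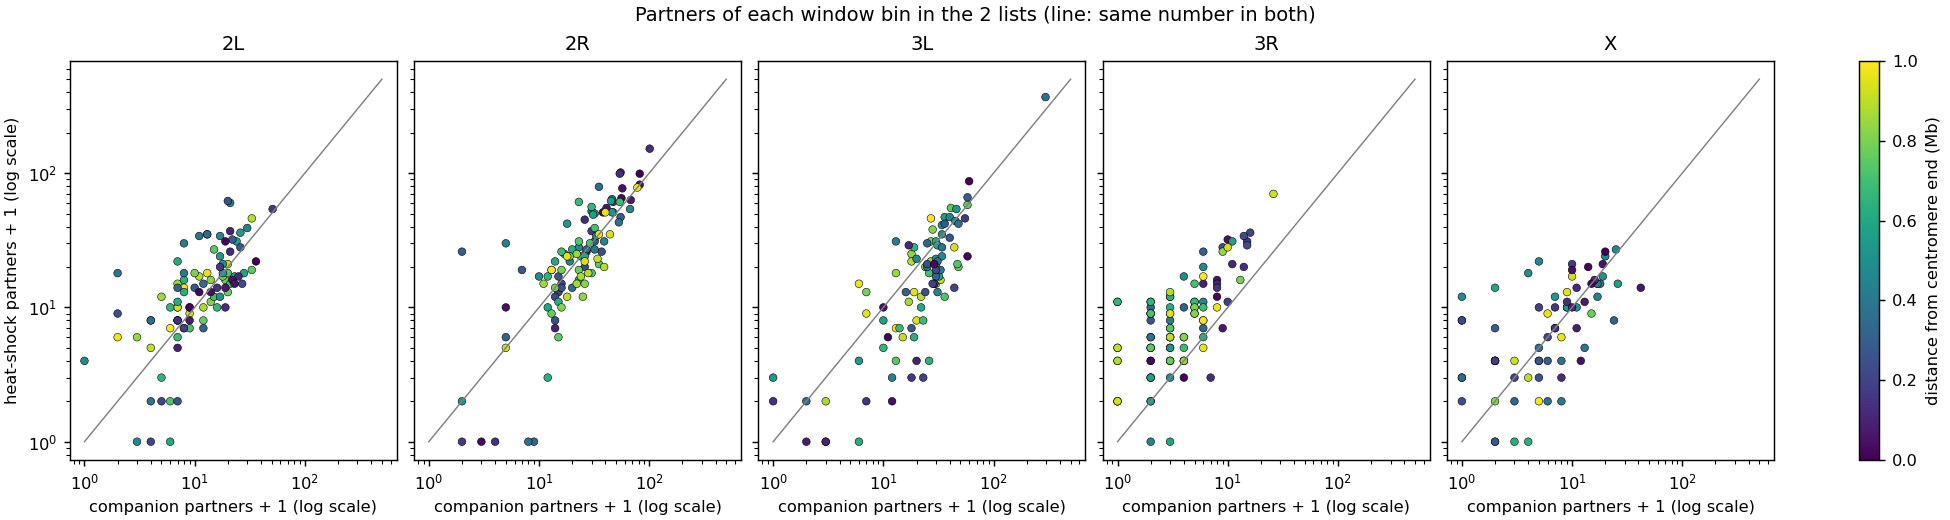
Number of partners of each window bin plus 1 in the companion list (horizontal, log scale) and in the heat-shock list (vertical, log scale), coloured by distance from the centromere end (Mb); the line marks equal numbers. Most 3L bins lie below the line and most 3R bins above it, and the highest point on 3L is the bin with 295 and 367 partners.

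The bins with most partners on 2R sat within 0.15 Mb of the end and kept most of their contacts. The bin 2R 140001-150000 had 100 companion and 151 heat-shock partners and kept 90.0% of the former. Its inside partners numbered 58 and 56, but its partners 1 Mb or more beyond the window went from 4 to 44. The neighbouring bin 2R 130001-140000 had 54 and 100 partners and kept 85.2%, and the first bin of the arm, 2R 10001-20000, had 81 and 98 and kept 87.7%. The largest losses on 2R were at its inner part: 2R 900001-910000 went from 38 to 19 partners, of which 35 and 16 were inside, and 2R 750001-760000 from 34 to 20.

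The terminal bins of 3L went opposite ways. The last bin, 3L 24530001-24540000, rose from 59 to 86 partners and kept 83.1% of the companion ones, with 42 and 52 partners inside. Only 0.02 Mb from it, 3L 24510001-24520000 had the largest loss of any end, from 57 to 23, and its inside partners went from 45 to 18. The bin 3L 24320001-24330000 went from 43 to 13 and kept 18.6%. The bin richest in partners, described above, gained 72 but kept only 47.1% of its companion partners.

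On 2L the largest gains were of both kinds of partner. The bin 2L 22730001-22740000 rose from 19 to 61 partners and kept 94.7%, with 13 and 34 inside and 6 and 27 outside. The bin 2L 22550001-22560000 rose from 20 to 59, and its far partners from 2 to 30. The bin with most companion partners, 2L 22810001-22820000, had 50 and 53 and kept 84.0%. The last bin of the arm, 2L 22980001-22990000, fell from 35 to 21, with 31 and 16 of these inside, and 2L 22230001-22240000 fell from 32 to 18.

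On X, 33 of 72 bins had fewer inside and 19 had fewer outside partners, but the bins named by rule for the largest losses lost mostly outside ones. The bin X 22350001-22360000 had 41 companion partners, 20 inside the window and 21 far away, and 13 in the heat-shock list, 11 of them inside and none far. The bin X 21860001-21870000, second by companion partners, went from 25 to 14 partners and from 20 to 7 far ones, and X 22110001-22120000 from 23 to 7 partners, 21 and 6 of them outside the window. The stable bins of X were internal: X 21950001-21960000 had 24 and 26 partners and kept 83.3%, and the last bin, X 22420001-22430000, had 19 and 25 with none beyond 1 Mb in either list and kept 89.5%. Gains were seen at X 21960001-21970000, from 4 to 21 partners with 19 of the latter inside, and at X 21930001-21940000, from 3 to 17.

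The 3R end had few partners per bin, and most of its bins gained. More heat-shock partners were found at 84 of 97 bins (86.6%, 78.2 to 92.7%), against 71.5% (70.7 to 72.4%) of bins outside the windows. The gain inside depended on list length. With both lists at equal length, 3R had 47 heat-shock and 50 companion pairs inside (0.940, 0.618 to 1.43). Its spanning pairs then numbered 389 and 288 (1.35, 1.16 to 1.58). The bin 3R 920001-930000, at its inner edge, rose from 25 to 69 partners, with 15 and 25 inside and 8 and 39 far away, and kept 44.0% of the companion ones. The bin 3R 210001-220000 rose from 15 to 35 and 3R 50001-60000 from 9 to 31. The largest losses were small, from 6 to 2 partners at 3R 130001-140000 and from 8 to 6 at 3R 70001-80000, and neither kept a companion partner.

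By the authors' scores, which are read here as ranks within a list with the most negative first, the strongest pairs of the ends differed between the lists more often than not. On 3L and 3R the strongest spanning pair was the same in both. On 3L it joined 3L 22730001-22740000 to 3L 24240001-24250000, 1.51 Mb apart, with scores of -55.6 (heat-shock) and -200 (companion). On 3R it joined 3R 300001-310000 to 3R 16970001-16980000, 16.7 Mb apart, with -17.3 and -29.0. In contrast, the strongest companion spanning pair of 2R, 2R 160001-170000 with 2R 1260001-1270000 at -144, and that of X, X 13680001-13690000 with X 21790001-21800000 at -181, were not in the heat-shock list. On 2L neither list's strongest spanning pair, each joining bins over 14 Mb apart with scores of -17.3 and -24.3, was in the other.

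On every arm the strongest pair inside the window scored weaker than the strongest spanning pair, in both lists. The strongest inside pair of the companion list was 3L 23930001-23940000 with 3L 24510001-24520000 at -73.8, which joined the bin with the largest loss and was not in the heat-shock list. That of the heat-shock list was 3L 23840001-23850000 with 3L 24480001-24490000 at -44.1, which ranked 36th inside that window in the companion list with -7.16. On the other ends the strongest inside pair scored between -12.1 and -5.89 (heat-shock) and between -28.0 and -5.48 (companion). Median scores of all window pairs were close, -2.73 for heat-shock and -2.78 for companion pairs.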

How the data were processed

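Bowtie 0.12.7 is named per the submitters' processing notes. The authors' deposited score per pair of 10 kb bins has no stated test, log base or background model, and 1 list is given for both Hi-C libraries. The build was not given in the sources used here. A Release 6 gene table extends past the last bins, so no gene was assigned, and positions are those of the lists, counted from 1. Members, windows and rules were chosen with earlier results of these data known. A bin's partners are the bins it is paired with; shared pairs have the same 2 bins in both lists. Bins were named by rule: on each arm the 2 with most partners in each list, the 2 largest losses and the 2 largest gains, and the strongest pair inside and spanning. Shares have Clopper-Pearson intervals, ratios conditional binomial ones, ratios of ratios conditional odds-ratio ones and medians order-statistic ones (SciPy 1.17.1, pandas 2.3.3). Functions were tested on simulated lists with planted numbers. Alternatives were stricter lists, equal list length, windows of 0.5 and 2 Mb, no top 1% bins, and overlap within 1 bin.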

Additional observations from a re-analysis of the deposited data

How the results depend on the processing

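Of 62 values recomputed under alternatives, 20 fell inside the main value's interval. No paired analysis was possible because there is 1 list of each kind, and leaving out 1 library was not possible for the same reason. Plain ratios of numbers depend on list length and window size. With equal length the ratio was 0.781 for touching, 0.550 for inside and 0.931 for spanning pairs; in 0.5 Mb windows it was 1.18, 1.02 and 1.20, and in 2 Mb windows 1.42, 1.07 and 2.04. Touching pairs had 1.18 in the strongest 50%, 1.31 without top bins (spanning 1.62) and, added after the data were seen, 1.39 without 3L (inside 0.953). Set against outside pairs up to 1 Mb apart, the inside ratio stayed below 1, from 0.522 in the strongest 50% to 0.743 in 2 Mb windows. For windows of 0.5 and 2 Mb this comparison does not hold the distance range alike. The share with both bins inside was 8.86% (heat-shock) and 10.3% (companion) in 0.5 Mb windows, 47.4% and 63.3% in 2 Mb windows, and 25.9% (heat-shock) without top bins. Median reach in the strongest 50% was 0.41 Mb (0.39 to 0.41 Mb) for heat-shock and 0.37 Mb (0.34 to 0.39 Mb) for companion pairs, with intervals that meet. It was 0.41 against 0.36 Mb at equal length and 0.41 against 0.32 Mb without the richest bin (added later). In 0.5 Mb windows it was 0.78 and 0.57 Mb, and in 2 Mb windows 2.59 against 3.00 Mb, the other order. Shared companion pairs were 39.7% in the strongest 50%, 34.8% at equal length, 41.1% in 2 Mb windows, 34.0% without top bins and 74.1% within 1 bin. Bins with fewer partners were 64.7% at equal length (48.2% outside), 31.2% in 2 Mb windows and 32.1% without 3L. Bins keeping at least 50% were 29.8% in the strongest 50%, 19.6% at equal length, 32.8% without top bins and 90.6% within 1 bin. The cause of these moves was not tested beyond what each construction shows. Depth is unknown, so absence from a list is not absence of contact.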
